A study of Homo sapiens with 9 samples.

Results

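The genes described here move calcium across the membrane of the endoplasmic reticulum (ER) and the cell surface: TRPV5, TRPV6, ATP2A2, ATP2A3, ATP2B1, ITPR1, ITPR2, ITPR3, STIM1 and ORAI1. They were chosen by name, as the probe set naming each gene on a human whole-transcript array. All 10 were found among the 17958 genes analysed, each with 1 probe set. The RNA came from HCT 116, an established line of human colorectal cancer cells, collected 24 hours after plasmid transfection and read as log2 expression. The control group received the empty vector pcDNA3. The KL-FL group received full-length mouse klotho, and the KL1 group received the KL1 subdomain of mouse klotho. Each group had 3 arrays, 9 in all. All cells had been exposed to a transfection reagent, either JetPEI or polyethylenimine, and which sample received which is not given in the sources used here. The share of cells that took up the plasmid is also not given, and these are bulk RNA values, in which a change in every cell and a larger change in a few cells cannot be told apart. Whether replicates were grown as separate cultures is not given either, so the spread behind every p-value is that of these samples and may be technical.

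Resting cells hold calcium in the ER at a far higher concentration than in the cytosol. SERCA pumps fill the store, inositol trisphosphate (IP3) receptors empty it on demand, and when it runs low the ER sensor STIM1 opens the plasma membrane channel ORAI1 so that it refills. The plasma membrane pump ATP2B1 sends calcium out of the cell, while TRPV5 and TRPV6 carry calcium into epithelial cells of kidney and intestine. Klotho is known to raise the amount of TRPV5 at the cell surface. Many ER chaperones need bound calcium, and emptying the store is a standard way to set off the unfolded protein response, the response named in the title of the series.

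With either klotho vector, RNA for the pumps and channels of this system stayed close to its level in the control. None of the 10 genes passed the limma test over all genes (Benjamini-Hochberg adjusted p under 0.05) with KL-FL, and none with KL1. In each of these comparisons 0.00557% of all genes passed, which was 1 gene and not a calcium transport gene. ATP2B1, the plasma membrane pump, was the member whose arrays separated. All 6 klotho arrays lay above all 3 controls, as they did in 2.20% of all genes. The log2 difference was 0.13 (SE 0.039, n = 3) with KL-FL and 0.14 (SE 0.039, n = 3) with KL1, with limma adjusted p = 0.667 and 0.927. ATP2A2, the main SERCA pump of non-muscle cells, differed from control by 0.016 (SE 0.028) and 0.0052 (SE 0.028). TRPV5 and TRPV6 read near the bottom of the scale in every group.

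Promoter sequence is shown for 2 of the genes, ATP2A2 because its promoter holds a match to a stress element and ATP2B1 because its arrays separated. RefSeq promoters on GRCh38.p14 were at hand for 7 of the 10 genes, in 12 windows of 250 bases before a listed start. ATP2A3, ITPR2 and ORAI1 were not among them. The ER stress response element (ERSE), to which the stress factor ATF6 binds together with NF-Y, was searched on both strands as CCAAT, 9 bases of any kind and CCACG, and occurred in 0 of the 12 windows and in 0.074% of 35116 windows genome-wide. With its last base left free it occurred in 1 of the 12, in ATP2A2, and in 0.282% of all windows. Every match to the first form is also a match to the second. The ATP2A2 match, with flanking bases, lies at chr12:110281179-110281208 on the plus strand of GRCh38.p14 and begins 63 bases before the more downstream of its 2 listed starts. Capitals mark its CCAAT and CCAC letters. The ATP2B1 sequence is the 250 bases before its outermost listed start, at chr12:89709367-89709616 on the minus strand, with a GC content of 75.2%. Capitals mark its 2 GC boxes, GGGCGG read on the other strand.
ATP2A2: ctcggCCAATgagcggcgtCCACatgccgc
ATP2B1: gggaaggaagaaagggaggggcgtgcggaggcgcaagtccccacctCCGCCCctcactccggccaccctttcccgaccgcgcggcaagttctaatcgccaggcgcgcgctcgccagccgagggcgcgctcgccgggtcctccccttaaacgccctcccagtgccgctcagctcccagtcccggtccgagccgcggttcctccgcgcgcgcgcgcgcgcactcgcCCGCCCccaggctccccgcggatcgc

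GC boxes occurred in 8 of the 12 windows, belonging to ATP2A2, ATP2B1, ITPR3, STIM1 and TRPV5, and in 42.6% of all windows. The core of the site for XBP1, another transcription factor of ER stress (TGACGTG), occurred in 0 of the 12 and in 1.68% of all windows. Both were searched on either strand, and matches describe letters in the windows, not binding.

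The cells read as an epithelial line. Of 14 epithelial markers 10 lay above the median gene, KRT8 highest at 10.7, while the intestinal brush border gene VIL1 was lowest at 3.77. All 7 measured leukocyte markers lay below the median gene, between 2.74 (PTPRC) and 4.07 (ITGAM), and the mean of the list ran from 3.35 to 3.43 over the 9 arrays. Of 10 fibroblast and endothelial markers 9 lay below the median gene, and their mean ran from 3.65 to 3.71. The median gene read 5.38 to 5.42, depending on the array. Correlation with the remaining arrays had a median of 0.997 for KL-FL replicate 3 and 0.998 for KL1 replicate 2, which stood slightly apart, and of 0.999 for the other 7. The human KL probe set read 3.03 to 3.06 in control, 3.13 to 3.22 with KL-FL and 3.13 to 3.27 with KL1. The plasmids carry mouse sequence, so this reading checks the labels only weakly.

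**Figure D1:**
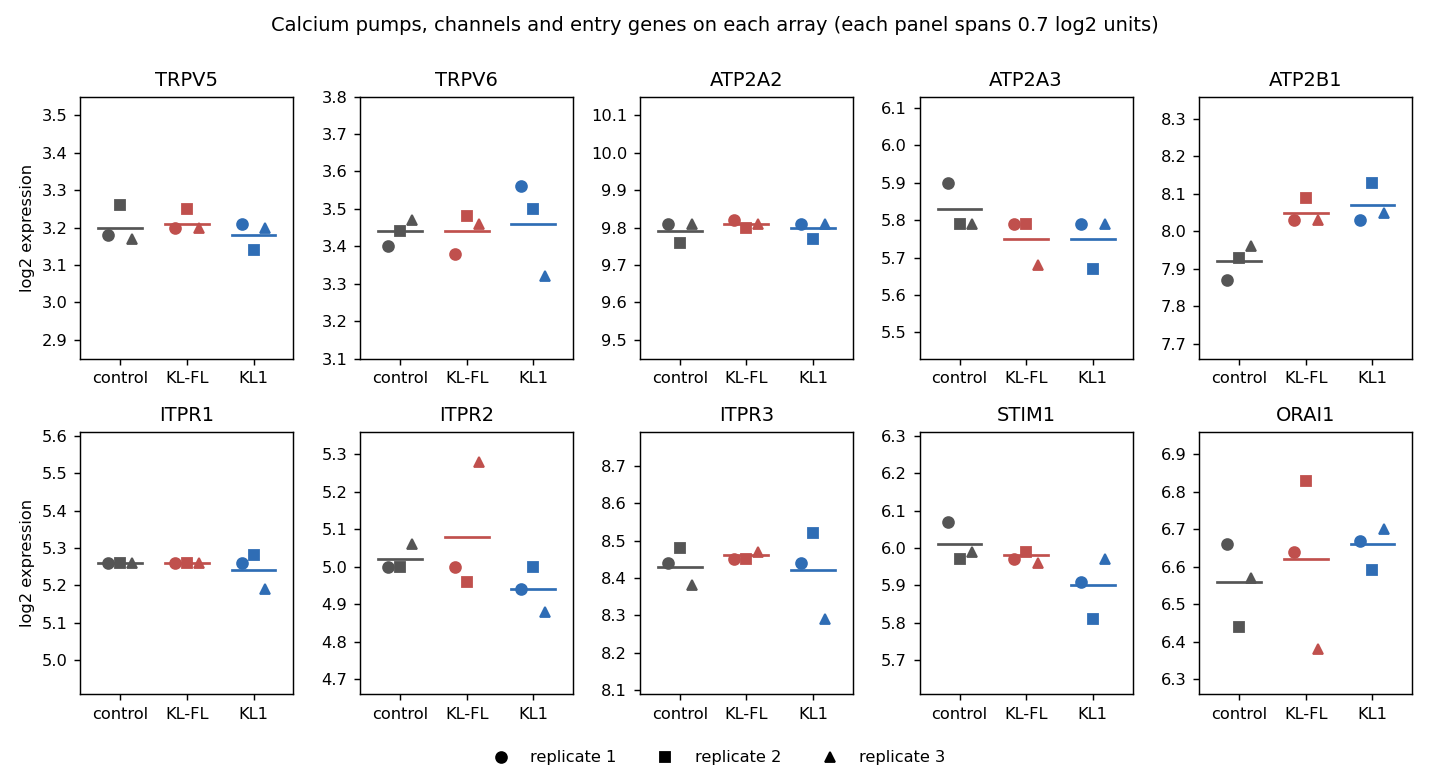
Log2 expression of the 10 calcium transport genes on each of the 9 arrays, by group, with a bar at each group's mean and a symbol for each replicate number. Every panel spans the same 0.7 log2 units. In ATP2B1 all 6 klotho arrays lie above the 3 controls, ATP2A2 lies within 9.76 to 9.82 throughout, and ORAI1 spreads from 6.38 to 6.83.

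Entry at the cell surface begins with TRPV5 and TRPV6, calcium-selective channels whose genes are neighbours on chromosome 7, with 0 other protein-coding genes starting between them. TRPV5 (probe set 8143518) read 3.18, 3.26 and 3.17 in control, 3.20, 3.25 and 3.20 with KL-FL, and 3.21, 3.14 and 3.20 with KL1. The 3 groups overlapped, and the whole range over 9 arrays was 0.11. TRPV6 (probe set 8143499), the form best known from intestine, read 3.40, 3.44 and 3.47 in control, 3.38, 3.48 and 3.46 with KL-FL, and 3.56, 3.50 and 3.32 with KL1. The KL1 arrays held both its highest and its lowest value. The mean readings of TRPV5 and TRPV6 over 9 arrays, 3.20 and 3.45, fell inside the span of the leukocyte markers given above. Probe sets differ in response and the table holds no detection call, so this places the readings on the scale and does not measure abundance.

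For TRPV5 the log2 difference was 0.0090 (95% interval -0.070 to 0.088, n = 3) with KL-FL and -0.022 (-0.10 to 0.057) with KL1. For TRPV6 it was 0.0041 (-0.13 to 0.14) and 0.027 (-0.11 to 0.16). The sign of the KL-FL difference turned under quantile normalization for both genes, and under median centring for TRPV6 as well. These intervals allow changes of at most 1.12-fold in either direction, if the probe sets were responding to their transcripts at such low readings.

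Store-operated entry rests on STIM1, the ER membrane protein that senses a falling store, and ORAI1, which forms the channel pore. STIM1 (probe set 7937900) read 6.07, 5.97 and 5.99 in control, 5.97, 5.99 and 5.96 with KL-FL, and 5.91, 5.81 and 5.97 with KL1. Its KL1 arrays were the lowest as a group, but KL1 replicate 3 overlapped control replicate 2. The difference was -0.12 (SE 0.046, 95% interval -0.22 to -0.014, n = 3) with KL1 and -0.038 (SE 0.046, -0.14 to 0.066) with KL-FL. Neither passed limma over all genes, with adjusted p = 0.927 and 0.836. With 1 array left out, the KL1 value ran from -0.16 without KL1 replicate 3 to -0.075 without KL1 replicate 2. The latter is one of the arrays that stood slightly apart. Tested directly, KL-FL and KL1 differed in STIM1 by 0.080 (SE 0.046, adjusted p = 0.855).

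ORAI1 (probe set 7959294) read 6.66, 6.44 and 6.57 in control, 6.64, 6.83 and 6.38 with KL-FL, and 6.67, 6.59 and 6.70 with KL1. It was the most variable of the 10 genes, and KL-FL replicates 2 and 3 were its highest and lowest arrays. Its spread within groups, an SD of 0.15, exceeded that of 96.0% of all genes. The difference was 0.062 (SE 0.10, 95% interval -0.17 to 0.30, n = 3) with KL-FL, and it ran from -0.044 without KL-FL replicate 2 to 0.18 without KL-FL replicate 3. With KL1 it was 0.10 (SE 0.10, -0.13 to 0.33). Its intervals allow changes up to 1.26-fold, the widest among these genes.

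Filling of the ER store is the work of ATP2A2 and ATP2A3, which encode SERCA2 and SERCA3. ATP2A2 (probe set 7958644) read 9.81, 9.76 and 9.81 in control, 9.82, 9.80 and 9.81 with KL-FL, and 9.81, 9.77 and 9.81 with KL1. The groups overlapped within a range of 0.057, the narrowest of the 10 genes. Only 3.86% of all genes had a smaller SD within groups. The 95% intervals of its difference, -0.048 to 0.081 with KL-FL and -0.059 to 0.069 with KL1, allow a change of at most 1.06-fold. On 4 of the 9 arrays its deposited value was exactly the same, and its mean reading lay above that of 98.4% of genes. The bound holds only if the probe set still responds to its transcript at that level. The ATP2A2 promoter holds the relaxed ERSE match printed above, and none of the other 11 windows does.

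ATP2A3 (probe set 8011516) read 5.90, 5.79 and 5.79 in control, 5.79, 5.79 and 5.68 with KL-FL, and 5.79, 5.67 and 5.79 with KL1. Control replicate 1 was the highest array, and the lowest reading of each klotho group came from an array that stood slightly apart, KL-FL replicate 3 and KL1 replicate 2. The difference was -0.074 (SE 0.051, adjusted p = 0.748) with KL-FL and -0.078 (SE 0.051, adjusted p = 0.927) with KL1. When KL-FL replicate 3 was left out the first became -0.037, and when KL1 replicate 2 was left out the second became -0.038. The KL-FL value was -0.036 without control replicate 1. On this gene 5 of the 9 arrays shared 1 exact deposited value, as happened for 10.5% of all genes.

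Release from the store runs through the IP3 receptors ITPR1, ITPR2 and ITPR3. ITPR1 (probe set 8077376) read 5.26 on all 3 controls, on all 3 KL-FL arrays and on KL1 replicate 1, and 5.28 and 5.19 on KL1 replicates 2 and 3. On 6 of the 9 arrays its deposited value was exactly the same. The difference was -0.00075 (95% interval -0.070 to 0.068) with KL-FL and -0.020 (-0.089 to 0.049) with KL1. ITPR3 (probe set 8118734) read 8.44, 8.48 and 8.38 in control, 8.45, 8.45 and 8.47 with KL-FL, and 8.44, 8.52 and 8.29 with KL1. KL1 replicates 2 and 3 held its highest and lowest values, and the differences were 0.022 (SE 0.055) and -0.016 (SE 0.055), the second turning sign under quantile normalization.

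ITPR2 (probe set 7961900) read 5.00, 5.00 and 5.06 in control, 5.00, 4.96 and 5.28 with KL-FL, and 4.94, 5.00 and 4.88 with KL1. A single array, KL-FL replicate 3, stood above the rest. The difference with KL-FL was 0.057 (SE 0.077, adjusted p = 0.855) with all arrays and -0.042 without that array. With KL1 it was -0.083 (SE 0.077, adjusted p = 0.930). KL-FL and KL1 differed by 0.14 (SE 0.077, adjusted p = 0.855), and by 0.041 without KL-FL replicate 3.

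Extrusion is represented by ATP2B1, which encodes the plasma membrane calcium pump PMCA1. ATP2B1 (probe set 7965359) read 7.87, 7.93 and 7.96 in control, 8.03, 8.09 and 8.03 with KL-FL, and 8.03, 8.13 and 8.05 with KL1. The lowest klotho array lay above the highest control in each comparison. The groups did not overlap, with KL-FL arrays all higher, in 7.13% of all genes, and with KL1 arrays all higher in 5.13%; all 6 klotho arrays lay above all 3 controls in 2.20% of genes. Of the 10 members, 1 was in each of these sets. The difference was 0.13 with KL-FL (95% interval 0.040 to 0.22, or 1.09-fold) and 0.14 with KL1 (0.057 to 0.23, or 1.11-fold). It did not pass limma over all genes, with adjusted p = 0.667 and 0.927. Both comparisons use the same 3 controls. KL-FL and KL1 differed from each other by -0.017 (SE 0.039, 95% interval -0.10 to 0.071).

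Leaving out any single array kept the ATP2B1 difference between 0.10 and 0.15 with KL-FL and between 0.12 and 0.17 with KL1. Over all alternatives its adjusted p ran from 0.0699, with array weights, to 0.887 with KL-FL, and from 0.558 to 1.00 with KL1. Array weights gave KL-FL replicate 1 a weight of 6.76, against 0.554 and 0.265 for KL-FL replicates 2 and 3. In that setting the KL-FL mean rested mostly on KL-FL replicate 1. The 3 genes whose 9 centred values lay nearest to those of ATP2B1 were PPP1R9B, OR5H2 and PGBD5. Their root mean square differences were 0.031, 0.033 and 0.033, against a median of 0.091 over all genes. The nearest of all genes lie below that median by selection, so this describes likeness and does not test it. OR5H2 read 2.49 to 2.64 and PGBD5 3.56 to 3.74, low on the scale, and PPP1R9B read 6.23 to 6.40.

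**Figure D2:**
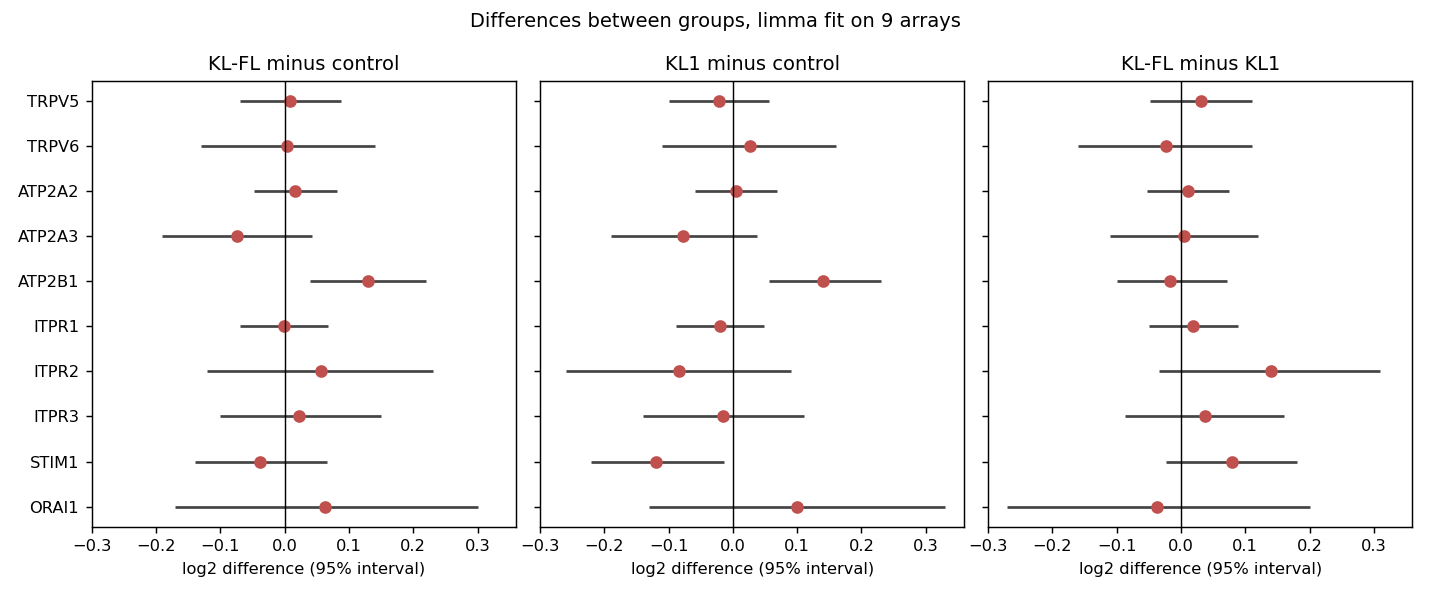
Log2 differences of the 10 genes between groups, with 95% intervals from the limma fit on 9 arrays. The intervals of ATP2B1 against control lie above 0, that of STIM1 with KL1 lies below 0, and all others include 0; none passed the adjusted threshold over all genes.

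Across the 10 genes, 7 read higher and 3 lower with KL-FL, where 57.3% of all genes read higher, and the median difference was 0.013 against 0.0099 for all genes. With KL1, 4 read higher and 6 lower, where 52.1% of all genes read higher, and the medians were -0.018 and 0.0026. The median size of the difference, without regard to sign, was 0.030 with KL-FL and 0.052 with KL1, against 0.041 and 0.037 for all genes. At an unadjusted limma p under 0.05 there was 1 member with KL-FL, ATP2B1, where 7.16% of all genes reached that level. With KL1 there were 2, ATP2B1 and STIM1, against 5.10% of all genes. The median SD within groups was 0.062 for the members and 0.061 for all genes. With KL-FL, 9 of the 10 intervals stayed within a 1.2-fold change in either direction. With KL1, 8 stayed below 1.2-fold, that of ITPR2 reached 1.2-fold only once rounded, and that of ORAI1 reached 1.26-fold.

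KL-FL and KL1 were also compared with each other. None of the 10 genes passed limma, where 0.0% of all genes did, and 0 members against 5.05% of all genes reached an unadjusted p under 0.05. The differences ran from -0.038 for ORAI1 to 0.14 for ITPR2, all 10 intervals included 0, and 8 stayed within a 1.2-fold change.

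**Figure D3:**
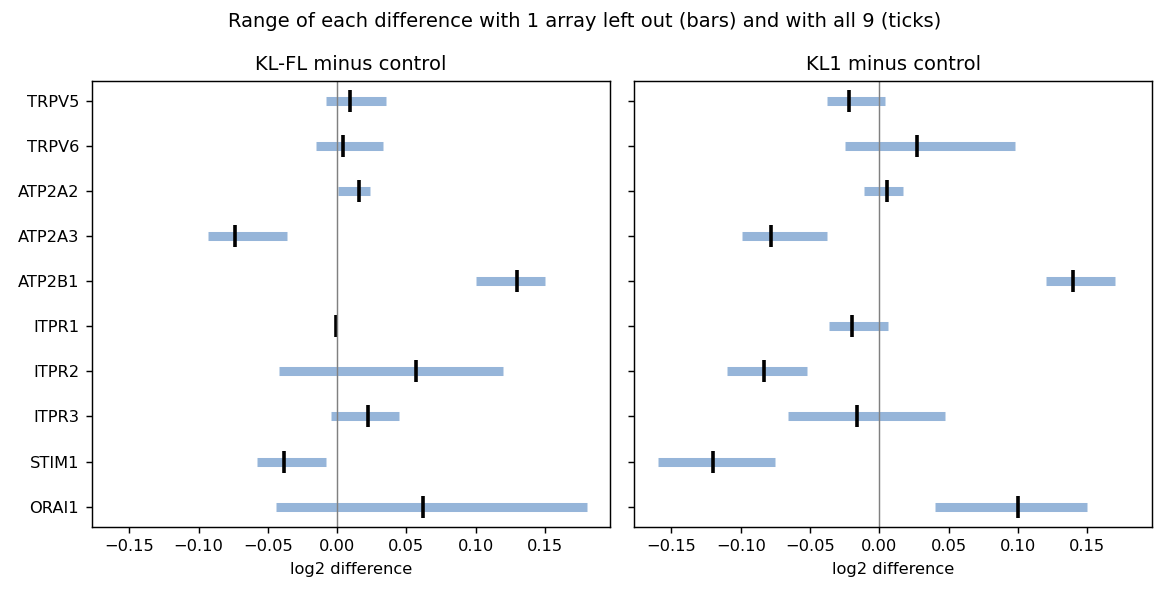
Range of each gene's log2 difference from control when each of the 9 arrays is left out in turn (bars) and with all arrays (ticks). The ATP2B1, ATP2A3 and STIM1 ranges stay on one side of 0 in both panels, while the range of ORAI1 with KL-FL reaches from -0.044 to 0.18.

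The rest of the calcium handling system was read from 9 lists with 134 genes, of which 121 were measured. None of the 121 passed limma with KL-FL, with KL1 or between them. At an unadjusted p under 0.05 there were 12 with KL-FL (9.92% of the 121, against 7.16% of all genes) and 10 with KL1 (8.26%, against 5.10%). In each comparison 4 of these came from the 17 measured genes of 1 list, labelled ER lumenal calcium binding. KL, whose mouse form the plasmids carry, was another in each. The counts therefore do not show a shift spread over all 9 lists. The median difference over the 121 genes was 0.012 with KL-FL and -0.00093 with KL1. The list labelled ER lumenal calcium binding, 17 measured, had the median 0.036 with KL-FL, against 0.0099 for all genes, and 0.058 with KL1, against 0.0026. It was drawn up by gene name with earlier results of these data known, so its medians and counts are not an independent test. Where each product resides in these cells was not checked. Of the 17, 11 read higher and 6 lower in each comparison, where 57.3% and 52.1% of all genes read higher. The lower ones included the calcium-binding proteins RCN1, RCN2 and CALU, named after their values were seen, at -0.085, -0.041 and -0.040 with KL-FL and -0.045, -0.036 and -0.047 with KL1. The highest positive differences from control of the 9 lists lay there, at the chaperone HSPA5, named here after its values were seen. They were 0.23 (SE 0.059, adjusted p = 0.583 by limma) with KL-FL and 0.28 (SE 0.059, adjusted p = 0.821) with KL1. In this list the gene with the smallest p was HSP90B1, the ER member of the HSP90 family, at 0.21 (SE 0.033) with each vector (adjusted p = 0.408 with KL-FL and 0.478 with KL1). NUCB2, a calcium-binding protein named here after its values were seen, differed by 0.21 (SE 0.044) and 0.15 (SE 0.044). PDIA4, likewise named after its values were seen, differed by 0.16 (SE 0.065) and 0.25 (SE 0.065). HSPA5, HSP90B1, NUCB2 and PDIA4 were the 4 genes of the list at an unadjusted p under 0.05 in each comparison. Calreticulin (CALR) and calnexin (CANX), also named after their values were seen, differed by 0.080 and 0.049 with KL-FL and by 0.091 and 0.073 with KL1.

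Among 16 measured genes of ER calcium release and leak, ERP44, a thioredoxin-family protein that inhibits ITPR1, had the smallest p. It read 7.44, 7.41 and 7.46 in control, 7.60, 7.63 and 7.52 with KL-FL, and 7.60, 7.56 and 7.59 with KL1. The klotho arrays all lay above the controls, and the difference was 0.15 (SE 0.035, adjusted p = 0.567) with KL-FL and 0.14 (SE 0.035, adjusted p = 0.927) with KL1. Among 15 genes of IP3 production and turnover, PLCB3, a phospholipase C that makes IP3, read 7.37, 7.32 and 7.36 in control, 7.22, 7.22 and 7.08 with KL-FL, and 7.21, 7.22 and 7.22 with KL1. All 6 klotho arrays lay below the controls, with differences of -0.17 (SE 0.042, adjusted p = 0.577) and -0.13 (SE 0.042, adjusted p = 0.927). INPP5A of the same list, named after its values were seen, had the lowest KL-FL difference of the 9 lists. It differed by -0.24 (SE 0.12, limma adjusted p = 0.700) with KL-FL and by -0.12 (SE 0.12, adjusted p = 0.933) with KL1. All 6 klotho arrays lay above all 3 controls in 2.20% of all genes and below them in 1.36%. ERP44 and PLCB3 were picked by their p, which favours genes whose arrays separate.

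The other 6 calcium ATPases had medians of 0.011 with KL-FL and -0.016 with KL1. The Golgi pump ATP2C1 had the smallest p with KL-FL at 0.064 (SE 0.032, adjusted p = 0.700) and ATP2B2 with KL1 at -0.050 (SE 0.046, adjusted p = 0.933). Of 4 measured SERCA regulators ARLN came first in both, at -0.15 (SE 0.078) each. Of 14 partners in store-operated entry TRPC1 came first, at 0.12 (SE 0.048) and 0.077 (SE 0.048). In the mitochondrial uptake list MCUR1, a regulator of the uniporter, came first at 0.19 (SE 0.068) and 0.14 (SE 0.068). In the list of epithelial calcium transport and TRPV5 and TRPV6 regulators, with 25 measured genes, KL itself came first, at 0.14 (SE 0.040) and 0.15 (SE 0.040). None of these differences passed over all genes, with adjusted p of 0.637 or more. KL is the gene whose mouse form the plasmids carry. A change in the cells' own KL and signal from plasmid RNA cannot be told apart on this probe set.

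In calmodulin and calcineurin signalling, with 14 measured genes, NFATC2 came first with KL-FL at 0.071 (SE 0.031) and RCAN3, a calcineurin inhibitor of the RCAN family, with KL1 at -0.20 (SE 0.066). RCAN3 read 6.33, 6.30 and 6.34 in control, 6.27, 6.38 and 6.27 with KL-FL, and 6.21, 5.96 and 6.20 with KL1. Its KL1 arrays lay below every other array, but the gene was picked by its p with KL1, which favours such a separation. In RCAN3, KL-FL and KL1 differed by 0.18 (SE 0.066, adjusted p = 0.855). The lowest value came from KL1 replicate 2.

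Between KL-FL and KL1 the other lists were led by ATP2C1 at 0.080 (SE 0.032), TMX1 at 0.046 (SE 0.054), IRAG1 at -0.12 (SE 0.058), TRPC4 at -0.047 (SE 0.040), NHERF4 at 0.086 (SE 0.043), SLC8B1 at 0.13 (SE 0.048), RCN3 at -0.073 (SE 0.040) and ITPKA at -0.083 (SE 0.045), with adjusted p from 0.855 to 0.893.

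**Figure D4:**
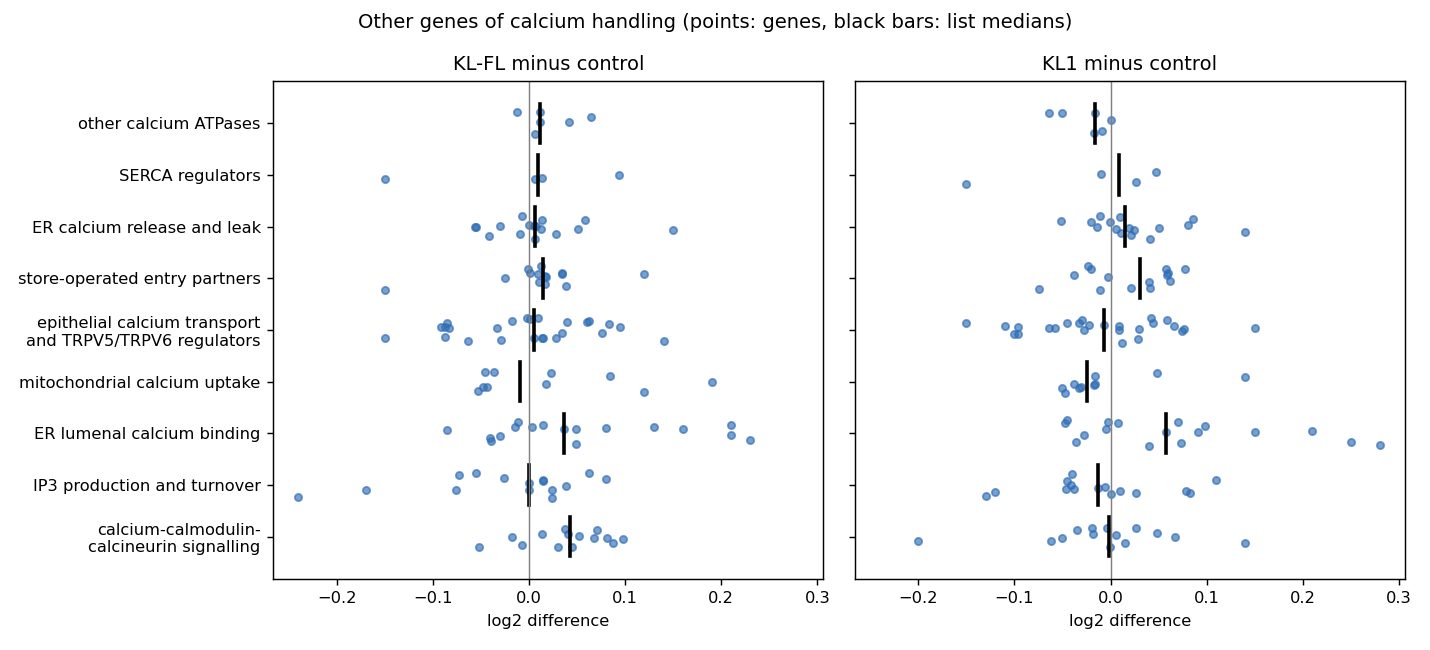
Log2 difference from control of each measured gene in 9 lists of calcium handling, with a bar at each list's median. Most points lie within 0.1 of 0, and the list labelled ER lumenal calcium binding has the medians 0.036 with KL-FL and 0.058 with KL1.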

How the data were processed

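Per the submitters' processing notes, the arrays were handled in Partek 6.6. The values, deposited for 33297 probe sets on 9 arrays, run from 1.79 to 12.4 and were taken as log2 from that range. How background was corrected and probes were normalized and summarised is not given in the sources used here. Per the labels, each array received 100 ng of total RNA. No floor or filter was applied. Of the probe sets, 19181 named 1 gene and were kept, 2055 named several and 12061 were unnamed here. The brightest stood for each of 895 genes with more than 1. The number of arrays limits precision.

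Groups came from sample titles. All 17958 genes were fitted together in limma 3.58.1 (R 4.3.3), with 3 groups as the only term. Tests were two-sided, with Benjamini-Hochberg adjustment across every gene, and the code was tested on simulated data. Named genes are the 10 members, the gene with the smallest p in each list and comparison, and the 3 genes nearest to the member with the smallest p. HSPA5, NUCB2, PDIA4, CALR, CANX, RCN1, RCN2, CALU and INPP5A lie outside this rule and were named after their values were seen. Members and lists were chosen with earlier results of these data known. Deviations of same-numbered control and KL1 arrays correlated at 0.113 to 0.322, a possible pairing by number in that comparison, since all 3 exceeded 0.1; those with KL-FL reached at most 0.0974. In a paired fit with the replicate number as a block (replicate block), 0 genes passed in either comparison with control, where 1 had passed without it. Alternatives were other normalizations, a low-value filter, other probe set rules, other variance estimates, array weights, the block, and each array left out.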

Additional observations from a re-analysis of the deposited data

How the results depend on the processing

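Across 18 alternative settings 0 of the 10 calcium transport genes passed the adjusted threshold in limma in any comparison. Their smallest adjusted p was 0.0699, for ATP2B1 with KL-FL under array weights. The filter at the 50th percentile left out 4 of the 10. The small number of arrays limits the precision.

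Of all genes, 1 passed with KL-FL, 1 with KL1 and 0 between them. With KL-FL the count was 0 in the fit of only the 6 arrays compared, 0 with each gene's own variance and 0 with the replicate block. It was 523 with array weights, 389 higher and 134 lower. There KL-FL replicate 1 weighed 6.76, against 0.554 and 0.265 for KL-FL replicates 2 and 3, so this count rested mostly on that array. With KL1 it was 0 with each gene's own variance, 0 with the replicate block and 2 with array weights. Between KL-FL and KL1 it was 1 with each gene's own variance and 1 with array weights. With 1 array left out the counts ran from 0 to 1 in each comparison with control. The replicate block changed no other call. The cause was not tested for any of these.

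The median of the members with KL-FL was -0.0040 with array weights, and from -0.0044 to 0.022 with 1 array left out. With KL1 it was -0.0052 with the 6 members left by the filter, and from -0.029 to 0.0024 with 1 array left out. Between KL-FL and KL1 it ran from 0.0053 to 0.034.

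Of the 30 member differences 13 never turned sign and 17 did at least once. Several settings leave each member's difference as it was and could not turn a sign. These were the low-value filter, other probe set rules, the fit of only the arrays compared, each gene's own variance and the replicate block. Leaving out an array of the group not compared changed no difference either. Only the normalizations, array weights and leaving out a compared array tested the signs. With KL-FL, TRPV5 was -0.0098 under quantile normalization and -0.0060 with array weights, TRPV6 was -0.0031 with arrays centred on their medians, -0.015 under quantile normalization and -0.048 with array weights, and ITPR2 was -0.016 with array weights. With KL1, TRPV6 was -0.0018 with array weights and ITPR3 was 0.0064 under quantile normalization. Between KL-FL and KL1, ATP2A3 was -0.0045 under quantile normalization.

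The remaining turns came from leaving out 1 array. With KL-FL, TRPV5 ran from -0.0077 to 0.035, TRPV6 from -0.015 to 0.033, ITPR2 from -0.042 to 0.12, ITPR3 from -0.0046 to 0.045 and ORAI1 from -0.044 to 0.18. With KL1, TRPV5 ran from -0.038 to 0.0042, TRPV6 from -0.025 to 0.098, ATP2A2 from -0.011 to 0.017, ITPR1 from -0.036 to 0.0061 and ITPR3 from -0.066 to 0.047. Between KL-FL and KL1, TRPV6 ran from -0.094 to 0.029, ATP2A2 from -0.00072 to 0.018, ATP2A3 from -0.036 to 0.041, ATP2B1 from -0.037 to 0.012, ITPR1 from -0.0069 to 0.036, ITPR3 from -0.026 to 0.087 and ORAI1 from -0.14 to 0.081.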
